A study of Mus musculus with 15 samples.

Results

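The insulin-like growth factor (IGF) axis was described here as 10 genes out of the 19452 genes that had a probe set with a single gene symbol on the array. They were the ligands Igf1 and Igf2, the receptors Igf1r and Igf2r, the binding proteins Igfbp2, Igfbp4, Igfbp5 and Igfbp6, and the adaptors Irs1 and Irs2. Each was chosen by its symbol in the platform annotation, and where a gene had more than 1 probe set, the one with the highest mean over the 0 min arrays was used. All 10 were found. Only Irs1 had a second probe set.

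The study used C2C12 mouse myoblasts, precursors of skeletal muscle that stop dividing and fuse into myotubes once serum is lowered. The line sampled was C2C12 (LKO1), derived from them by stable integration of an empty lentivirus vector. They were grown in serum with puromycin and kept below confluency so that they proliferated, and all groups shared this line and medium. Actinomycin D, which binds DNA and blocks RNA synthesis, was added at 8 µg/mL and acted for 30 min before time 0. There were 3 replicate time courses with 1 Affymetrix array for each of 5 times (15 arrays), at 0 min and then after 10, 50, 110 and 230 min, so every group had been treated, and an untreated group was not analysed here.

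IGF-I and IGF-II are small secreted proteins related to insulin. Both signal through IGF1R, a receptor tyrosine kinase, whereas IGF2R, also known as the cation-independent mannose 6-phosphate receptor, has no kinase and carries IGF-II to lysosomes. The IGF binding proteins hold the ligands outside the cell and can limit or prolong their action. Inside the cell the insulin receptor substrates IRS1 and IRS2 are phosphorylated by the receptor and recruit PI3 kinase, which leads to AKT and mTOR. In muscle precursors this pathway is known to serve both proliferation and differentiation, and differentiating C2C12 cells are known to make their own IGF-II.

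The deposited values are ratios to each array's own 5th percentile. A value of 1.00 thus marks the dim end of an array, and a transcript that starts near it can hardly fall further. The 75th percentile of the arrays, a measure of how bright the upper part of each array was, lay between 2.89 and 4.63 at 230 min, against 7.80 to 9.81 at 0 min. The dimmest arrays of their time points were those of replicate 1 at 110 min (3.90) and of replicate 2 at 230 min (2.89). Of 7 markers of myoblasts, 6 were above the median of their arrays at 0 min (all but Mstn), and their summed level was 49.1 to 74.8 at 230 min, against 105 to 135 at 0 min. Above the median were also 5 of 13 markers of myotubes (Myog, Mymk, Ckm, Acta1 and Tnnt3), 1 of 3 of resting satellite cells (Pax7), 3 of 9 of fibroblasts and adipocytes (Pdgfra, Pparg and Lpl) and 1 of 4 of macrophages (Cd68), while neither hepatocyte marker was. Of all 25175 probe sets, 12544 were above the median at 0 min, so these counts alone do not show that such cells were present. In RNA from whole cultures, fewer cells of a type and less RNA per cell cannot be told apart. The time course was done in triplicate, and whether the replicates were separate cultures is not stated in the sources used here. The p-values of trends and changes rest on the scatter of single arrays around the fit, after each time course's own level was taken out. Those of pairs rest on reordering the times within each time course. The scatter behind both may in part be technical. With so few arrays, precision is limited.

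Irs1 was the member whose transcript fell fastest, to 23.8% ± 4.56 of its 0 min level at 230 min (SD, n = 3 time courses), and the only one that fell under each of the 3 scalings of the arrays that were tried. Irs2 and Igf1r followed, at 51.7% ± 8.66 and 54.2% ± 10.1. Igf2, Igfbp4, Igfbp2 and Igf1 were left at 61.0 to 69.4%, and Igfbp5, Igfbp6 and Igf2r at 74.4 to 81.3%. The order after Irs1 and Irs2 depended on the scale. With 1.00 subtracted from every value first, Igf1 (37.6% ± 7.51), Igfbp4 (41.5% ± 7.42) and Igf2 (42.8% ± 8.90) lay below Igf1r (48.7% ± 11.6). In a linear trend of log2 level against time, fitted with limma over all 25175 probe sets with the time course as a block, 9 of the 10 members fell and 0 rose (adjusted p under 0.05). Of all probe sets, 80.1% fell and 1.07% rose, so the share of members that fell is near that of the array as a whole.

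**Figure D1:**
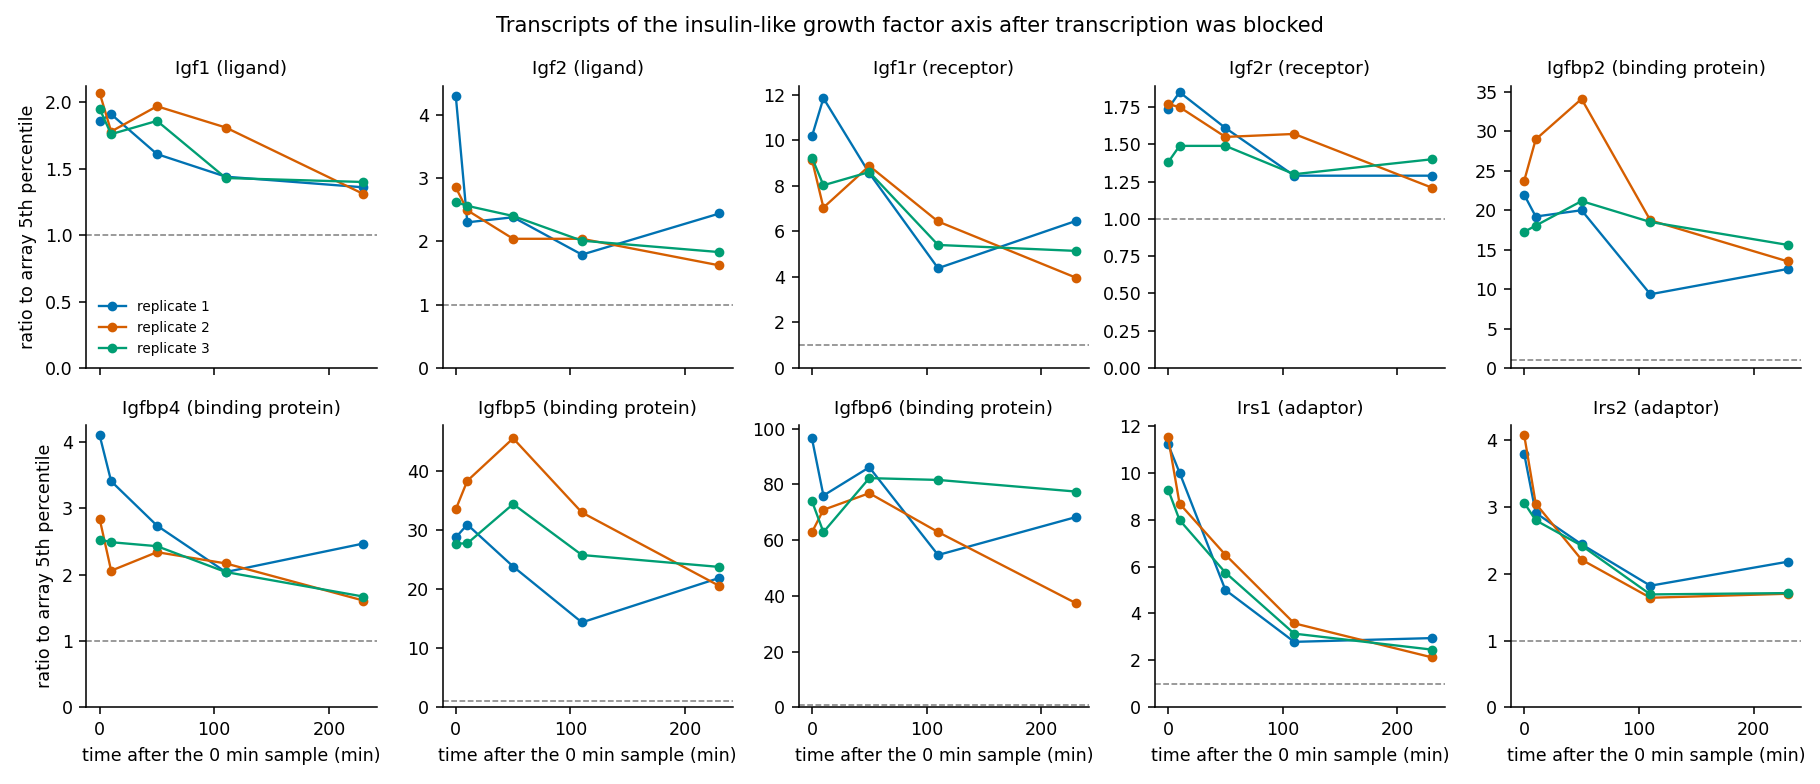
Level of each of the 10 genes (y axis, ratio to the 5th percentile of the array, linear from 0) against time after the 0 min sample in minutes (x axis). Lines join the arrays of 1 time course and a dashed line marks 1.00; all 3 lines of Irs1 drop to between 2.79 and 3.58 by 110 min, while the lines of Igfbp6 spread from 37.4 to 77.5 at 230 min.

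How many members fell rested on the scaling of the arrays. Division of every array by its median left 1 member that fell (Irs1) and 1 that rose (Igf2r), against 20.6% and 42.2% of all probe sets, and the median slope of all probe sets was then 0.037 log2 per hr, in place of -0.14. Under division by the 75th percentile 1 member fell (Irs1 again) and 8 rose (all but Irs1 and Irs2), against 7.98% and 75.7% of all probe sets, at a median slope of 0.17. Slopes of log2 level per hr are therefore given as deposited, with the slope after division by the array median beside them.

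**Figure D2:**
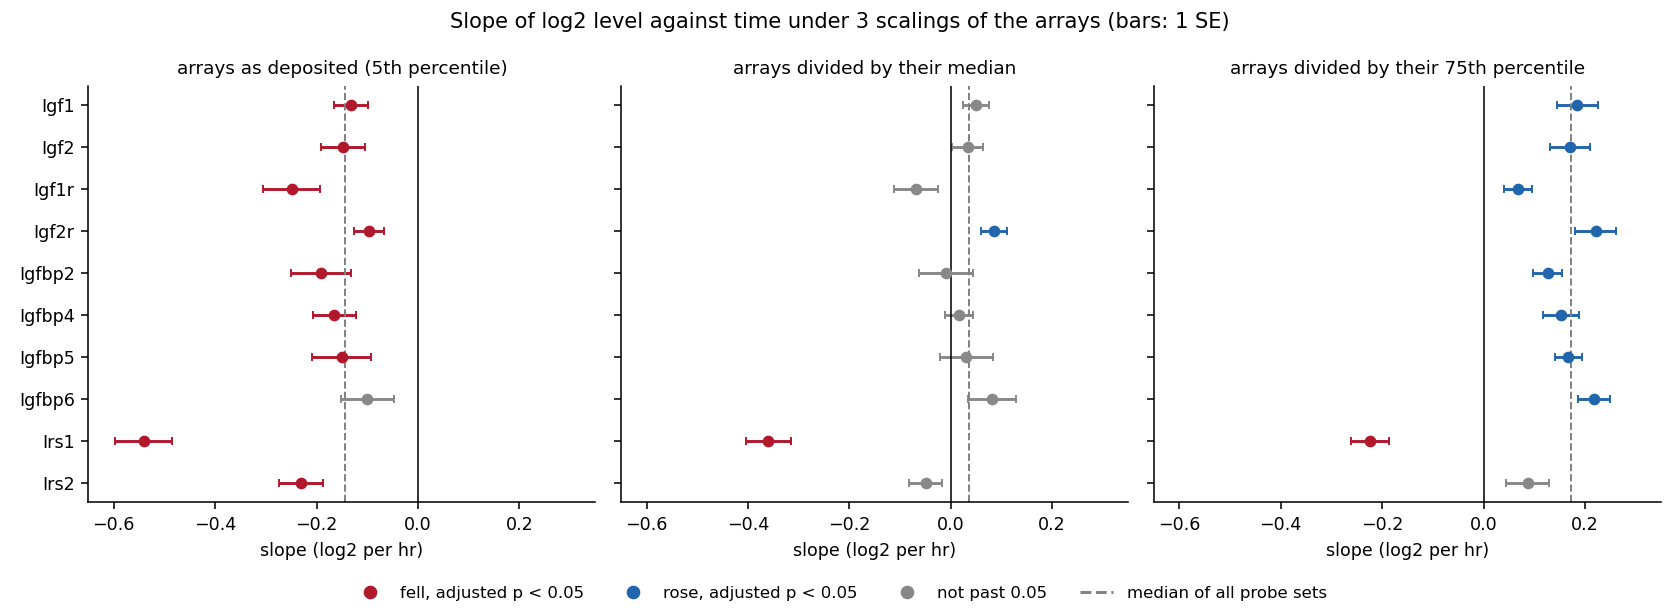
Slope of log2 level against time (x axis, log2 per hr) of the 10 genes (y axis) under 3 scalings of the arrays, with bars of 1 SE. Red marks genes that fell, blue genes that rose (adjusted p under 0.05 over all probe sets) and grey the others, and the dashed line is the median slope of all probe sets; Irs1 is red in each panel (-0.54, -0.36 and -0.22).

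The ligand Igf1 was dim in these cells. In order of time it read 1.86, 1.91, 1.61, 1.44 and 1.36 in replicate 1, 2.07, 1.78, 1.97, 1.81 and 1.31 in replicate 2, and 1.95, 1.76, 1.86, 1.43 and 1.40 in replicate 3. Every 230 min array lay below every 110 min array and every 0 min array, and the 10 and 50 min arrays overlapped the 0 min arrays. Its slope was -0.13 ± 0.033 log2 per hr (SE, adjusted p = 0.00022), and 0.049 after division by the array median (adjusted p = 0.089). Igf1 was not above the median of its arrays at 0 min. Among the markers of other cell types, 5 macrophage and hepatocyte genes (Adgre1, Csf1r, Ptprc, Alb and Ttr) were also below that median, with means of 1.12 to 1.58 at 0 min, and their slopes ran from -0.085 to -0.026, so that 3 of these 5 fell as well. With 1.00 subtracted from every value, the percent of Igf1 left at 230 min was 37.6% ± 7.51 (SD, n = 3), in place of 69.4% ± 5.34.

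Igf2 read 4.29, 2.30, 2.38, 1.79 and 2.44 in replicate 1, 2.85, 2.49, 2.04, 2.04 and 1.62 in replicate 2, and 2.62, 2.56, 2.40, 2.01 and 1.83 in replicate 3. The 0 min array of replicate 1 stood well above the other 0 min arrays, and at every later time all 3 arrays were below all 3 at 0 min. At 10 min the change was -0.38 ± 0.18 log2 (SE) and did not pass the test across all probe sets (adjusted p = 1.00). The slope was -0.15 ± 0.043 (adjusted p = 0.0014) and lay between -0.16 and -0.13 when each replicate was left out in turn, with the call kept. After division by the array median it was 0.033 (adjusted p = 0.36).

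Between the ligands no difference in slope was found. The slope of Igf1 minus that of Igf2, taken within each array and so free of the array's scaling, was 0.016 log2 per hr, with -0.0064, 0.036 and 0.017 in replicates 1, 2 and 3 (two-sided exact permutation test over orders of the times within time courses, p = 0.77, adjusted over 9 pairs of members p = 0.77). Both ligands were dim, and the sign turned when 1.00 was subtracted from every value first, to -0.094 (exact permutation test, adjusted p = 0.33).

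Igf1r encodes the signalling receptor. Its transcript read 10.2, 11.8, 8.55, 4.38 and 6.45 in replicate 1, 9.14, 7.04, 8.87, 6.43 and 3.97 in replicate 2, and 9.23, 8.02, 8.60, 5.40 and 5.14 in replicate 3. The drop lay between 50 and 110 min, where the ranges did not overlap, and the 110 and 230 min arrays overlapped. Against 0 min the change was -0.13 ± 0.24 log2 (SE) at 50 min (adjusted p = 0.93) and -0.83 ± 0.24 at 110 min (adjusted p = 0.0018), a call that was lost relative to the array median. Its slope of -0.25 ± 0.057 (adjusted p = 6.2e-05) was close to the median of the 12544 probe sets above the median of their arrays at 0 min, which was also -0.25, and 50.3% of these were shallower. Divided by the array median, the slope was -0.068 (adjusted p = 0.17).

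Igf2r, the receptor that clears IGF-II, was dim as well and not above the median of its arrays at 0 min. It read 1.74, 1.85, 1.61, 1.29 and 1.29 in replicate 1, 1.77, 1.75, 1.55, 1.57 and 1.21 in replicate 2, and 1.38, 1.49, 1.49, 1.30 and 1.40 in replicate 3. In replicate 3 the 230 min array was slightly above the 0 min array, and the groups overlapped. The slope was -0.096 ± 0.030 as deposited (SE, adjusted p = 0.0023), but 0.085 after division by the array median (adjusted p = 0.0033), so the call turned from a fall to a rise with the scaling.

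As deposited, the slope of Igf1r minus that of Igf2r was -0.15 log2 per hr, with -0.11, -0.15 and -0.21 in replicates 1, 2 and 3 (two-sided exact permutation test, adjusted p = 0.043). The sign turned when 1.00 was subtracted from every value first, to 0.021 (adjusted p = 0.75), and the call was lost without replicate 2 (adjusted p = 0.098) and without replicate 3 (adjusted p = 0.255, exact permutation tests). At 230 min 54.2% ± 10.1 of Igf1r and 81.3% ± 17.7 of Igf2r were left as deposited, and 48.7% ± 11.6 and 57.2% ± 42.0 after the subtraction (SD, n = 3).

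As deposited the 4 binding proteins had slopes of -0.19 to -0.100 log2 per hr, all shallower than those of Igf1r, Irs1 and Irs2. This contrast was not tested. With 1.00 subtracted, 41.5% ± 7.42 of Igfbp4 was left at 230 min, against 48.7% ± 11.6 of Igf1r (SD, n = 3). Igfbp2, Igfbp5 and Igfbp6 stayed above Igf1r, at 66.6 to 78.0%. IGFBP2 and IGFBP5 bind both ligands, IGFBP4 is known mainly as an inhibitor of IGF action and is cut by the protease PAPP-A, and IGFBP6 prefers IGF-II. Igfbp5 is known to be induced when C2C12 cells differentiate.

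Igfbp2 read 22.0, 19.2, 20.0, 9.35 and 12.6 in replicate 1, 23.8, 29.0, 34.1, 18.7 and 13.5 in replicate 2, and 17.3, 18.1, 21.2, 18.5 and 15.6 in replicate 3. In replicates 2 and 3 the highest value was at 50 min, and at 230 min all 3 arrays were below all 3 at 0 min. Its slope was -0.19 ± 0.060 (SE, adjusted p = 0.0026), with -0.24, -0.28 and -0.054 in the separate time courses. The call was lost without replicate 2 (-0.15), and after division by the array median the slope was -0.010 (adjusted p = 0.88).

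Igfbp4, which was much closer to 1.00, read 4.10, 3.41, 2.74, 2.04 and 2.47 in replicate 1, 2.84, 2.06, 2.34, 2.17 and 1.61 in replicate 2, and 2.53, 2.49, 2.43, 2.04 and 1.67 in replicate 3. The groups at 110 and 230 min lay below that at 0 min with no overlap, and replicate 1 was the highest at 0 min. Among the binding proteins its slope varied least between time courses, at -0.17, -0.16 and -0.16, for -0.16 ± 0.043 in all (SE, adjusted p = 0.00038). With division by the array median the slope was 0.016 (adjusted p = 0.62).

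Igfbp5 read 28.8, 31.0, 23.8, 14.4 and 21.9 in replicate 1, 33.5, 38.4, 45.6, 33.0 and 20.5 in replicate 2, and 27.7, 27.8, 34.4, 25.8 and 23.8 in replicate 3. The 230 min arrays were all below the 0 min arrays, while the 110 min arrays overlapped them, since in replicate 2 the 110 min value was almost that of 0 min. The trend passed the test (slope -0.15 ± 0.058, SE, adjusted p = 0.014), but the change at 230 min against 0 min did not (-0.44 ± 0.25 log2, adjusted p = 0.095). The trend call was lost without replicate 2 (-0.11), without both dim arrays (-0.087), and without the 230 min arrays (-0.22). After division by the array median the slope was 0.031 (adjusted p = 0.62).

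Igfbp6 was the only member whose trend did not pass the test, at -0.100 ± 0.053 log2 per hr (SE, adjusted p = 0.071). It read 96.5, 76.0, 86.2, 54.7 and 68.3 in replicate 1, 62.9, 70.9, 76.9, 62.9 and 37.4 in replicate 2, and 74.0, 62.9, 82.3, 81.6 and 77.5 in replicate 3. Replicate 3 did not fall, with a slope of 0.044 against -0.12 and -0.22 in replicates 1 and 2, and the groups at 230 and 0 min overlapped. Without replicate 3 the trend passed, at -0.17. Igfbp6 was far above 1.00 in every array, and subtracting 1.00 left the percent at 230 min at 78.0% ± 23.8 (SD, n = 3), in place of 78.3% ± 23.5.

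Of the 6 pairs of binding proteins, 1 differed in slope as deposited. Igfbp2 minus Igfbp6 was -0.092 log2 per hr, with -0.12, -0.059 and -0.098 in the 3 time courses (two-sided exact permutation test, adjusted p = 0.047). This call was lost without any of the replicates (adjusted p of 0.063 to 0.255, exact permutation tests) and on log2 of the value + 1 (adjusted p = 0.057). The other 5 differences ran from -0.065 to -0.014, with adjusted p of 0.34 to 0.77 in the same test. After 1.00 was subtracted, Igfbp4 fell more steeply than Igfbp5 (-0.15, adjusted p = 0.042) and than Igfbp6 (-0.20, adjusted p = 0.036), and Igfbp2 minus Igfbp6 was -0.10 (adjusted p = 0.040, exact permutation tests).

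Irs1 encodes the adaptor best known for passing the IGF-I signal to growth. Its transcript read 11.2, 10.0, 5.0, 2.79 and 2.95 in replicate 1, 11.5, 8.68, 6.50, 3.58 and 2.13 in replicate 2, and 9.28, 7.98, 5.74, 3.14 and 2.46 in replicate 3. The groups at 0 and 10 min overlapped, those at 50 and 110 min each lay wholly below the one before, and those at 110 and 230 min overlapped. Against 0 min the change was -0.26 ± 0.23 log2 at 10 min (SE, adjusted p = 1.00), -0.89 ± 0.23 at 50 min (adjusted p = 0.0093), -1.75 ± 0.23 at 110 min (adjusted p = 7.8e-13) and -2.09 ± 0.23 at 230 min (adjusted p = 1.2e-18). The slope was -0.54 ± 0.056 log2 per hr (SE, adjusted p = 2.2e-16), and -0.51, -0.61 and -0.50 in the single time courses. Without the 230 min arrays it was -0.93, and the slopes of Irs2 (-0.54), Igf1r (-0.43), Igf2 (-0.32) and Igfbp4 (-0.26) were also steeper by over 1.5 times than with all times, while the median slope of all probe sets was -0.21, in place of -0.14. Only few transcripts were steeper, since 98.2% of all probe sets and 96.4% of those above the array median at 0 min had a shallower slope. It fell in each of the other scalings too, at -0.36 ± 0.044 with the array median (adjusted p = 2.4e-09) and -0.22 ± 0.038 with the 75th percentile (adjusted p = 3.6e-06). The second probe set of Irs1 was not above the array median at 0 min, where it read 1.23, 2.28 and 1.46, and its slope was -0.12 (adjusted p = 7.4e-05).

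Irs2, the other main substrate of the insulin and IGF-I receptors, read 3.79, 2.91, 2.44, 1.82 and 2.18 in replicate 1, 4.07, 3.05, 2.21, 1.64 and 1.70 in replicate 2, and 3.06, 2.80, 2.42, 1.69 and 1.71 in replicate 3. Each group up to 110 min lay below the one before it with no overlap, and none of the 3 time courses was lower at 230 min than at 110 min. The change at 50 min passed the test (-0.62 ± 0.18 log2, SE, adjusted p = 0.046), as did those at 110 min (-1.08 ± 0.18, adjusted p = 8.8e-08) and 230 min (-0.97 ± 0.18, adjusted p = 7.5e-07). The slope was -0.23 ± 0.044 log2 per hr (adjusted p = 2.3e-06), and 43.1% of the probe sets above the array median at 0 min were shallower. Divided by the array median, the slope was -0.050 (adjusted p = 0.18), while the changes at 50 and 110 min still passed the test.

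The adaptors differed from each other in slope over the full time course. The slope of Irs1 minus that of Irs2 was -0.31 log2 per hr, with -0.33, -0.32 and -0.28 in replicates 1, 2 and 3 (two-sided exact permutation test, p = 1.3e-05, adjusted over 9 pairs p = 0.00011). It stayed at -0.30 after 1.00 was subtracted (adjusted p = 0.0034), and the call was kept when any of the replicates was left out (adjusted p of 0.0019 to 0.0075, exact permutation tests). At 230 min 23.8% ± 4.56 of Irs1 and 51.7% ± 8.66 of Irs2 were left as deposited, and 15.8% ± 4.45 and 33.2% ± 9.81 after the subtraction (SD, n = 3). At earlier times the contrast depended on the scale. As deposited 30.0% ± 4.59 and 47.8% ± 7.47 were left at 110 min. After the subtraction the means for Irs1 and Irs2 were 81.9% and 74.2% at 10 min, and 49.6% and 53.3% at 50 min. At 110 min they were 22.6% ± 4.48 and 27.9% ± 6.45.

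**Figure D3:**
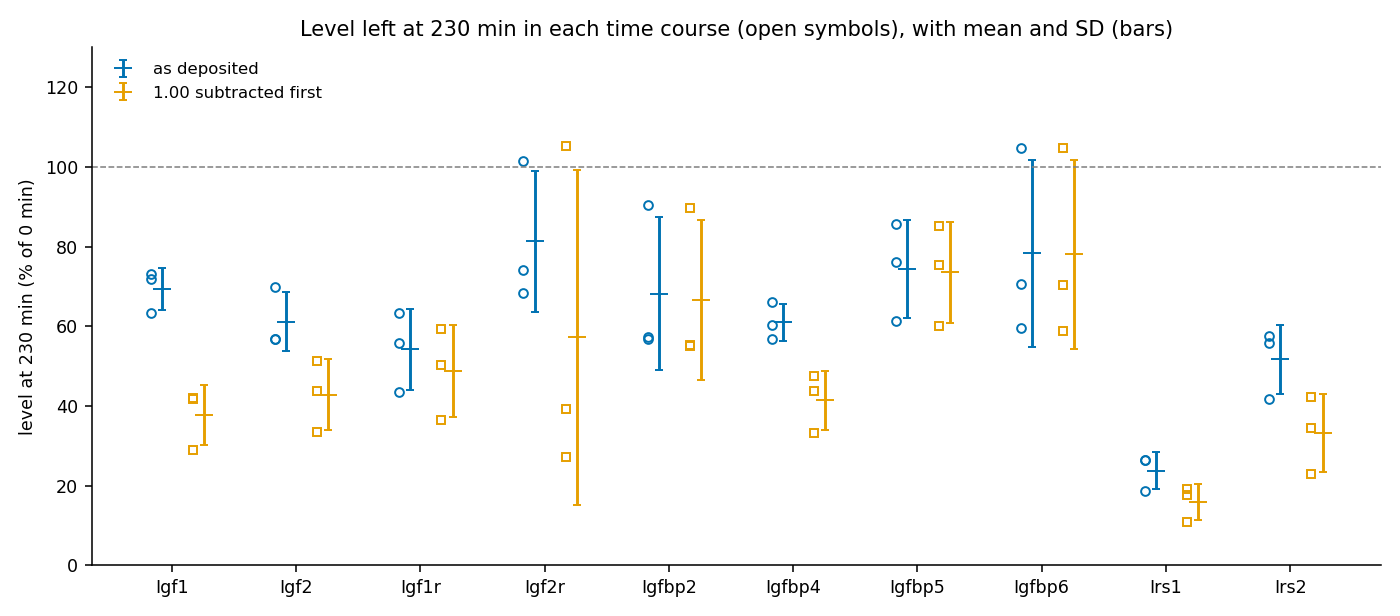
Level at 230 min as a percent of the 0 min level of the same time course (y axis) for the 10 genes (x axis), as deposited (blue) and after 1.00 was subtracted from every value (orange). Open symbols are the 3 time courses and bars the mean and SD; Irs1 is the lowest in both (23.8% and 15.8%), and the 2 scales part most for dim genes such as Igf1 (69.4% and 37.6%).

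The time at which a change first passed the test varied among the members, and whether members differ in timing was not tested. At 10 min 0 members had fallen by limma's test against 0 min, as had 0.00% of all probe sets. At an unadjusted p under 0.05, 1 of 10 members was lower at 10 min (Igf2). Of all 25175 probe sets, 832 were lower and 136 higher at this threshold. At 50 min 2 members had fallen, Irs1 and Irs2, against 1.53% of all probe sets. Both calls at 50 min were lost when any of the replicates was left out. By 110 min 6 had fallen (Igf1, Igf2, Igf1r, Igfbp4, Irs1 and Irs2) against 59.1% of all probe sets, and by 230 min 8 had fallen, all but Igfbp5 and Igfbp6, against 75.7%. Relative to the array median only Irs1 and Irs2 had fallen at 110 min and only Irs1 at 230 min, while Igf2r had risen at both times. For 8 members, all but Igf2r and Igfbp6, every 230 min array lay below every 0 min array, as was the case for 71.7% of all probe sets.

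The last step differed between the time courses. In replicate 1 the level at 230 min was above that at 110 min for 8 of 10 members, against 1 of 10 in replicate 2 and 2 of 10 in replicate 3. The 75th percentile of the arrays moved the same way in each time course. It was 4.63 at 230 min and 3.90 at 110 min in replicate 1, 2.89 and 4.75 in replicate 2, and 3.99 and 5.46 in replicate 3. The share of all probe sets that were higher at 230 min is not given here, and the part of array brightness in these counts was not tested.

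An exponential curve was fitted to each member in each time course, after the methods of the study, and a half-life was counted as reliable where the decay passed the fit test and the 95% confidence interval was narrower than 2 times the half-life, in at least 2 of 3 time courses. Only Irs1 met this among the members, against 5.84% of all probe sets. In replicates 1, 2 and 3 it decayed with half-lives of 59.0, 75.3 and 88.6 min, which average 74.3 ± 14.8 min (SD, n = 3), or 1.24 ± 0.247 hr. The confidence intervals ran from 19.1 to 222 min, from 39.2 to 154 min and from 48.0 to 178 min, so that replicate 1 did not meet the limit on width. A floor in the curve gave 39.5 ± 10.7 min, a straight line on log2 values 112 min and division by the array median 124 min, so the value rests on the model by more than the spread between time courses.

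The other half-lives are descriptions. Those of Irs2 were 252, 139.5 and 228 min (mean 206 ± 59.3, SD, n = 3), and those of Igf1r 187, 234 and 249 min (mean 223 ± 32.2). Igfbp4 and Igf2 averaged 338 ± 67.0 and 343 ± 59.0 min, and Igf1 447 ± 16.6 min, or 7.45 hr, which is longer than the 230 min that were sampled. The confidence intervals of Igf1 were wide, at 231 to 2018 min, 201 to 311637 min and 214 min with no upper bound. With a floor in the curve the time courses parted, at 51.2, 438 and 92.1 min for Igf1 and 2.26, 37.0 and 94.0 min for Igf2. For Igfbp4 they were 19.2, 380 and 374 min. For the rest the time courses disagreed already without a floor. Igfbp2 gave 211, 239.6 and 1201 min, Igfbp5 gave 319, 322 and 807 min, Igf2r gave 406, 449 and 3285 min, and Igfbp6 gave 438 and 323 min and no decay in replicate 3. With a floor in the curve the mean of Irs2 was 24.8 ± 17.5 min, below that of Irs1, so the order of the adaptors by half-life depends on the model. Their order by slope rests on the brighter probe set of Irs1, since that of the dim second one (-0.12) was shallower than that of Irs2.

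The rest of the pathway was read from a list of 67 genes, of which 62 had a probe set with their symbol alone. As deposited 61 of these 62 fell and 0 rose, beside 80.1% and 1.07% of all probe sets, and their median slope was -0.28 log2 per hr, compared with -0.16 for the 10 members and -0.14 for all probe sets. After division by the array median 31 of them fell and 10 rose, beside 20.6% and 42.2% of all probe sets. The 47 listed genes above the array median at 0 min had a median slope of -0.31, against -0.25 for all probe sets above it.

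Outside the cell, 9 of 10 matched genes fell (80.1% of all probe sets did), with a median slope of -0.094, and only 4 of the 10 were above the array median at 0 min. Among these 4, Stc2, which encodes a stanniocalcin that inhibits the protease PAPP-A, had the steepest slope and averaged 1.73 ± 0.336 at 230 min, against 3.11 ± 0.735 at 0 min (SD, n = 3; slope -0.22, adjusted p = 4.0e-06). Igfbp7, whose product is related to the IGF binding proteins but binds IGFs weakly, had the shallowest and was the only listed gene that did not pass the test, at 34.6 ± 7.16 at 230 min and 41.2 ± 5.15 at 0 min (slope -0.083, adjusted p = 0.17). After division by the array median 0 of the 10 fell and 6 rose, where 20.6% and 42.2% of all probe sets did.

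Insr, the insulin receptor, averaged 3.98 ± 0.322 at 230 min, against 9.24 ± 1.38 at 0 min (SD, n = 3), with a slope of -0.33 (adjusted p = 1.7e-07). It also fell relative to the array median (-0.15, adjusted p = 0.0025). Its relative Insrr was below the array median at 0 min.

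The intracellular parts had medians of -0.32 to -0.28, against -0.25 for all probe sets above the array median at 0 min. They held mostly such brighter genes (12 of 16, 11 of 12 and 19 of 20), unlike the extracellular part (4 of 10), and the part of level in this contrast was not tested. All 16 adaptor and feedback genes fell (median -0.28), as did all 12 matched PI3K and AKT genes (median -0.30) and all 20 matched mTOR and effector genes (median -0.32), as deposited, when 80.1% of all probe sets fell. Relative to the array median the genes that fell were 9 of 16, 7 of 12 and 14 of 20, beside 20.6% of all probe sets, and 2 of the adaptor and feedback genes rose. On this scale the median slope was -0.067 for probe sets above the array median at 0 min and 0.037 for all. The 20.6% is therefore not a like share for these mostly brighter genes, and the share among brighter probe sets is not given here. Ptpn1, a phosphatase that acts on the insulin and IGF-I receptors, averaged 4.03 ± 1.35 at 230 min, against 14.3 ± 4.22 at 0 min (slope -0.48, adjusted p = 7.0e-13), whereas the adaptor Shc1 averaged 10.4 ± 1.87 and 16.3 ± 2.04 (slope -0.18, adjusted p = 0.0037).

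Among the kinase genes Pik3r1, a regulatory subunit of PI3 kinase, had the steepest slope, with 3.56 ± 0.643 at 230 min, against 12.02 ± 2.63 at 0 min (SD, n = 3; slope -0.47, adjusted p = 5.2e-13). Akt1, the kinase downstream of it, had the shallowest, with 26.3 ± 10.8 at 230 min and 39.4 ± 7.81 at 0 min (slope -0.18, adjusted p = 0.0028). The mTOR and effector genes above the array median at 0 min ran from Trib3 to Deptor in slope. Trib3, a pseudokinase that binds AKT, had -0.48 (adjusted p = 3.8e-16), and Deptor, a subunit that inhibits mTOR, -0.16 (adjusted p = 0.0085). Akt1, Shc1 and Deptor no longer passed the test relative to the array median (slopes of -0.0031, 0.00043 and 0.019).

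The genes of the RNA-binding proteins of Igf2 mRNA, Igf2bp1 and Igf2bp3, were below the array median at 0 min. Both fell as deposited (median slope -0.13), as did 80.1% of all probe sets (median slope -0.14). After division by the array median the slope of Igf2bp1 was 0.039 (limma, adjusted p = 0.21). That of Igf2bp3 was 0.067 (adjusted p = 0.017), a rise that 42.2% of all probe sets shared.

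**Figure D4:**
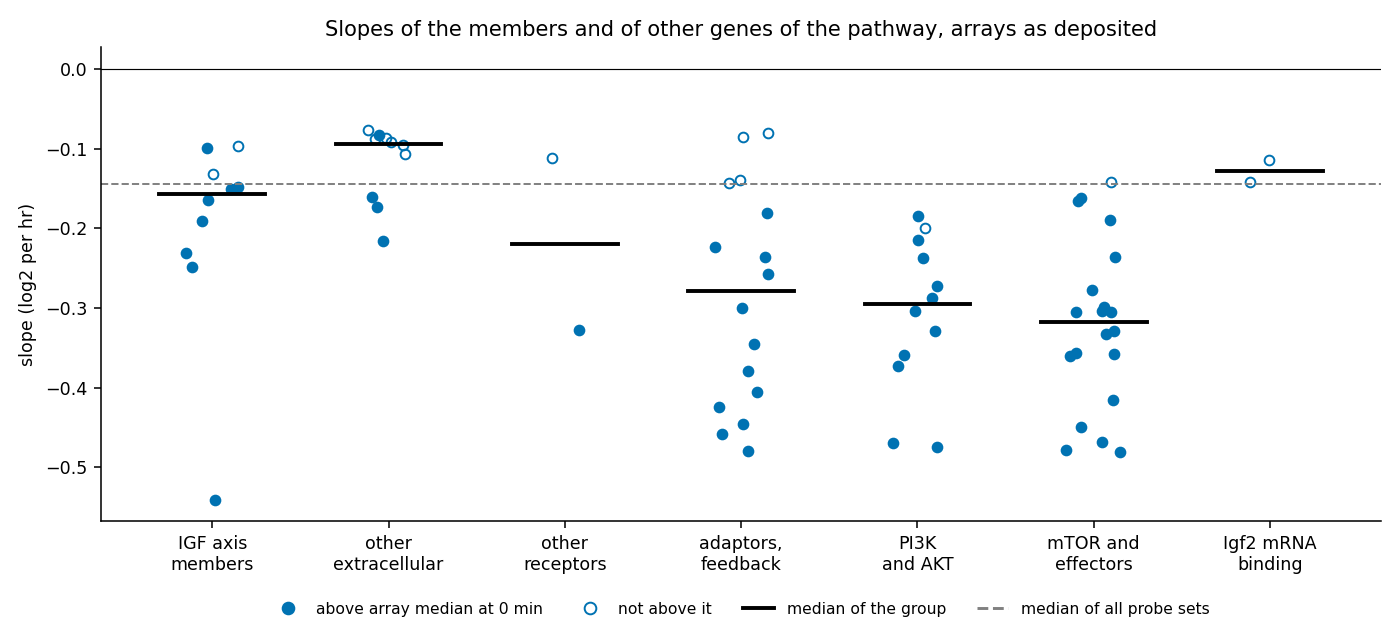
Slope of log2 level against time as deposited (y axis, log2 per hr) for the 10 members and the 62 other genes of the pathway in 6 parts (x axis). Each point is a gene, filled where it was above the median of its arrays at 0 min, the black bar is the median of the part and the dashed line that of all probe sets (-0.14); Irs1 lies lowest, at -0.54.

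The genes whose profile over the 15 arrays was most like that of Irs1 were ranked by Pearson r of log2 level relative to the array median, among 10822 probe sets with a single symbol above the array median at 0 min. They were Sema4c (r = 0.992), Klf3 (0.983), Ccn1 (0.983), Bcar3 (0.982) and Sik1 (0.982), with slopes as deposited of -1.10 to -0.50. For Igfbp6, the bright member with the shallowest slope, they were Mtpn (0.942), Ddb1 (0.940), Mars1 (0.936), Itgb1 (0.934) and Psmd2 (0.931), with slopes of -0.13 to -0.086. All profiles shared the same arrays and times, and the values describe likeness only.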

How the data were processed

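RNA from 15 samples, 5 times in each of 3 time courses, was hybridized to Affymetrix Mouse Gene arrays, 1 per sample. The authors deposited ratios on a linear scale, with every array set to its own 5th percentile. The summary method was not given in the sources used here, nor was any background correction, and no detection p-values were used. Of 25175 probe sets, 21044 had 1 symbol in the platform annotation, 1492 several and 2639 none. Of those with 1 symbol, 20959 were matched to a RefSeq table of mouse genes, used for names only.

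Trends and changes against 0 min were fitted on log2 values, with no pseudocount or level filter, with limma 3.58.1 in R 4.3.3 (time course as a block, eBayes with an intensity trend, Benjamini-Hochberg at 0.05 over all probe sets). Half-lives were least squares fits of A·exp(-kt) to the 5 ratios of a time course with scipy 1.17.1 and numpy 2.4.6 in Python 3.11.15 (pandas 2.3.3, matplotlib 3.10.9). Pairs were compared by exact permutation of the times within time courses (1728000 orders). A probe set called above the median exceeded the median of its 0 min array in at least 2 of 3 replicates. The trend and half-life code was tested on simulated data.

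Members, gene lists, tests and alternatives were chosen with earlier results of these data known. Named were all members, the steepest and shallowest gene of each pathway part above the median (other named genes were chosen after their values were seen), and the 5 genes most like the steepest and the shallowest member above it. Alternatives covered scaling, block, variance model, level filter, pseudocount, replicates, times, probe set and decay model.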

Additional observations from a re-analysis of the deposited data

How the results depend on the processing

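The scaling of the arrays changed the most. With each array divided by its median, and by its 75th percentile, the members that fell in the trend were 1 and 1 in place of 9, those that rose 1 and 8 in place of 0, the pathway genes that fell 31 and 12 in place of 61, and those that rose 10 and 29 in place of 0. The pathway counts are out of 62 genes. Of all probe sets, 20.6% and 7.98% fell in place of 80.1%, and 42.2% and 75.7% rose in place of 1.07%. The slope turned positive with the median for Igf1 (0.049), Igf2 (0.033), Igf2r (0.085), Igfbp4 (0.016), Igfbp5 (0.031) and Igfbp6 (0.081). It turned positive with the 75th percentile for Igf1 (0.19), Igf2 (0.17), Igf1r (0.068), Igf2r (0.22), Igfbp2 (0.13), Igfbp4 (0.15), Igfbp5 (0.17), Igfbp6 (0.22) and Irs2 (0.087). With the median, 2 members in place of 6 fell at 110 min, 1 in place of 8 at 230 min, and 0 in place of 1 had a reliable half-life, as also without the 0 min arrays. The cause was not tested.

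Without each replicate in turn, 7 to 10 members fell in the trend, 0 at 50 min, 3 to 6 at 110 min (3 without replicate 1), 6 to 8 at 230 min, 0 to 1 had a reliable half-life (0 without replicate 2 or 3), and 1 to 2 pairs in place of 3 differed. The shares of all probe sets called in these fits are not given here, so shifts of the members cannot be set apart from shifts of the whole array. Differences between slopes turned sign among these for Igfbp2 minus Igfbp4 (-0.093 to 0.023, positive without replicate 2), for Igfbp4 minus Igfbp5 (-0.055 to 0.020, positive without replicate 3) and for Igfbp4 minus Igfbp6 (-0.13 to 0.0051, positive without replicate 3), and for Igfbp4 minus Igfbp5 on log2 of the value + 1 (0.030). Subtracting 1.00 first, an alternative chosen after seeing the data, turned Igf1 minus Igf2 (-0.094), Igf1r minus Igf2r (0.021) and Igfbp2 minus Igfbp4 (0.099).

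Deviations of arrays from their time means correlated over 0.1 in 18 of 30 pairs of arrays with the same replicate number (median 0.23). With other numbers this held in 11 of 60 pairs (median -0.13). Arrays of the same number were thus more alike on this measure, though not in every pair. Deviations from a mean of 3 replicates push the correlations with other numbers down, so the 2 medians are not independent. The block follows the fit of each time course in the methods. With no replicate block the same 9 members fell in the trend, 1 in place of 2 at 50 min (Irs1), and 7 in place of 8 at 230 min (not Igfbp2). A level filter left out Igf1 and Igf2r, and the other 7 calls were kept. For the fits with no block and with the filter, the shares of all probe sets called are not given here either.

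Whether the authors subtracted a background is not given in the sources used here. The percent left at 230 min moved by more than its SD when 1.00 was subtracted for Igf1, Igf2, Igf2r, Igfbp4, Irs1 and Irs2, and half-lives beyond the 230 min sampled are extrapolations.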
